A study of Homo sapiens with 6 samples.

Results

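In all, 10 genes of fatty acid activation and acyl-CoA hydrolysis were followed in a colorectal carcinoma line after an siRNA against CPT2. They were 4 synthetases, ACSL1, ACSL3, ACSL5 and ACSS1, and 6 thioesterases, ACOT1, ACOT2, ACOT7, ACOT8, ACOT9 and ACOT13. The genes were found by their symbols in a table of 24154 genes, which held all 10. Of these, 9 had enough reads to be tested, among 15302 tested genes, and ACSS1 did not.

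Acyl-CoA synthetases join a fatty acid to coenzyme A with the energy of ATP, which traps the acid in the cell and opens it to oxidation or to lipid synthesis. Acyl-CoA thioesterases cut the same bond and give back the free acid and coenzyme A, so the 2 groups of enzymes act in opposite directions on a shared pool. CPT2, carnitine palmitoyltransferase 2, comes after the synthetases on the mitochondrial route. It rebuilds long-chain acyl-CoA inside the mitochondrion from acylcarnitine, as the last step before beta-oxidation.

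RNA was measured by poly(A) RNA-seq in HCT116, an established human colorectal carcinoma line. One group, NC, received a negative control siRNA and the other, siCPT2, an siRNA against CPT2, both for 48 h, with 3 libraries each. No further genotype or agent separated the groups, and no untreated cells were analysed here. Whether the 3 replicates of a group came from separate cultures is not stated in the labels, and the p-values cover the spread among these libraries alone, which may be technical.

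Total counts were 28353790 to 29449380 per library. The CPT2 mRNA had 709, 881 and 911 counts in NC and 492, 597 and 553 in siCPT2. All siCPT2 libraries were below all NC libraries, with a log2 fold change of -0.44 ± 0.17 (SE, n = 3 per group) that did not pass the test (edgeR adjusted p = 0.338). With offsets for transcript GC content and length it was 0.04, and -0.26 when siCPT2 replicate 1 was also left out. After that adjustment, siCPT2 replicate 1 was above NC and the other 2 siCPT2 libraries below it. The siCPT2 replicate 1 library stood apart on the first principal component (76.6 against -44.6 to 16.0 in the other 5). Mitochondrially encoded genes took 10.002% to 10.8% of NC counts and 8.99% to 17.0% of siCPT2 counts. Of the 10 colorectal epithelial markers, KRT8 and KRT18 were high (391.7 to 667.2 FPKM over both), while KRT20, VIL1, CDX2 and LGR5 had at most 4 counts in a library, CDH1 was at most at 0.591 FPKM, EPCAM at most at 2.36 FPKM and CLDN4 at 9.90 to 15.9 FPKM. Of 4 endothelial markers, CDH5 was at 12.3 to 27.7 FPKM and the other 3 were under 1 FPKM in every library, and their sum was 22.2 to 27.9 FPKM in NC and 12.5 to 20.5 FPKM in siCPT2. The long transcripts NKTR and SON, taken as signs of RNA quality, summed to 37.7 to 55.5 FPKM in NC and 19.7 to 39.4 FPKM in siCPT2. The part of either in the differences described here was not tested. Of 5 fibroblast and muscle markers, COL1A1 was at 10.9 to 17.1 FPKM. ACTA2 was at most at 1.16 FPKM, PDGFRB at 0.670, COL1A2 at 0.0805 and DCN at 0.0725. Several defining intestinal markers were thus at or near 0 in libraries labelled as a colorectal line.

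ACOT7 was the most abundant of the 10 mRNAs per transcript length, followed by ACSL3 and ACOT9. Levels between genes are compared on the FPKM scale, fragments scaled to transcript length and library size, as the authors deposited it. ACOT7, a cytosolic thioesterase best known from neurons, was at 50.0 ± 3.29 FPKM (SD, n = 3) in NC. ACSL3, the synthetase of the endoplasmic reticulum and lipid droplets, was at 35.4 ± 5.23 FPKM, and ACOT9, a mitochondrial thioesterase, at 26.6 ± 2.31 FPKM. The order then ran through ACOT8 at 17.1 FPKM, ACSL1 at 13.4, ACOT13 at 11.1 and ACOT2 at 8.32. ACOT1 at 2.87 FPKM and ACSL5 at 2.47 FPKM came next, and ACSS1 was last at 0.0286 FPKM. In NC, ACOT1 and ACSL5 were the one pair of neighbours in this order whose libraries overlapped. In siCPT2, ACSL3 also overlapped ACOT9, and ACSL1 overlapped ACOT13. Per kilobase of the longest annotated transcript, ACOT7 stood at 32.0 CPM (counts scaled to library size) and ACOT8 at 6.16, below their FPKM. The lengths that the ratio of CPM to FPKM implies were 1.59 to 1.66 kb for ACOT7 and 1.11 to 1.21 kb for ACOT8, where the longest annotated transcripts had 2429 and 3059 bases.

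Within each family a few genes made up most of the mRNA. ACSL3 held 55.5% ± 1.63 (SD, n = 3) of the summed FPKM of the 5 ACSL genes in NC and 58.3% ± 2.37 in siCPT2. ACSL1 held 21.2% in NC and ACSL4 19.3%, against 3.91% for ACSL5. The summed ACSL level was 57.3 to 72.4 FPKM in NC and 29.3, 60.2 and 57.7 FPKM in siCPT2 replicates 1, 2 and 3. On this scale replicate 1 was far below the other 5 libraries. FPKM was used as deposited, without the TMM factor, which was 0.877 in siCPT2 replicate 1. The implied length of ACSL3 was also at its longest there (5.96 kb), so the size of this gap depends on the scale. In the ACOT family, ACOT7 held 42.1% ± 2.57 in NC and 42.9% ± 3.65 in siCPT2, ACOT9 22.4% in NC and ACOT8 14.4%. For ACOT7 and for ACSL1 (21.2% ± 2.00 against 19.8% ± 1.67), the shares of the groups differed by less than their SD over libraries. ACSS1, which makes acetyl-CoA from acetate in mitochondria, was at 2, 8 and 0 counts in NC and at 0 in every siCPT2 library. A count of 0 allows up to 3 counts, or 0.102 to 0.106 CPM here, so no fold is given for it.

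None of the 9 tested genes passed the test between siCPT2 and NC. Counts were tested across all 15302 genes with edgeR's quasi-likelihood F-test and Benjamini-Hochberg adjustment, and a gene was called at an adjusted p under 0.05. That rule called 2 genes in all, or 0.0131% of those tested, and 13 by DESeq2, or 0.166% of its 7836 genes with an adjusted p. At an unadjusted p under 0.05, edgeR had 2215 genes (14.5%), and 1 of the 9 members, ACOT13, was among them. The groups did not overlap for 3 of the 9, ACOT7 and ACOT13 above and ACSL1 below, against 24.4% of all tested genes (12.2% in each direction). This share (3 of 9) is near the background. In bulk RNA, fewer cells with a transcript and less of it per cell cannot be told apart.

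Of the 9, 6 were higher and 3 lower in siCPT2, with a median log2 fold change of 0.16, where all tested genes had a median of 0.01 and 50.7% were higher. The thioesterases had a median of 0.22 (5 of 6 higher) and the synthetases one of -0.09 (1 of 3 higher), but with the GC and length offsets, a fit that called 3 of 13207 genes (0.0227%) and no member, these medians became 0.00438 (3 of 6 higher) and 0.21 (2 of 3 higher). Without siCPT2 replicate 1, and with no offsets, the synthetase median was 0.0463 (2 of 3 higher) and the thioesterase median 0.12 (5 of 6 higher). Over all libraries left out in turn they ran from -0.24 to 0.0463 and from 0.12 to 0.33. Scaling by library size alone shifted the median of all tested genes to -0.13 and the members' median to 0.01, with 5 of 9 higher. ACSL1 stayed below 0 and ACOT8 and ACOT13 above 0 in all 3 scalings, as counted, with the offsets and by library size alone.

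**Figure D1:**
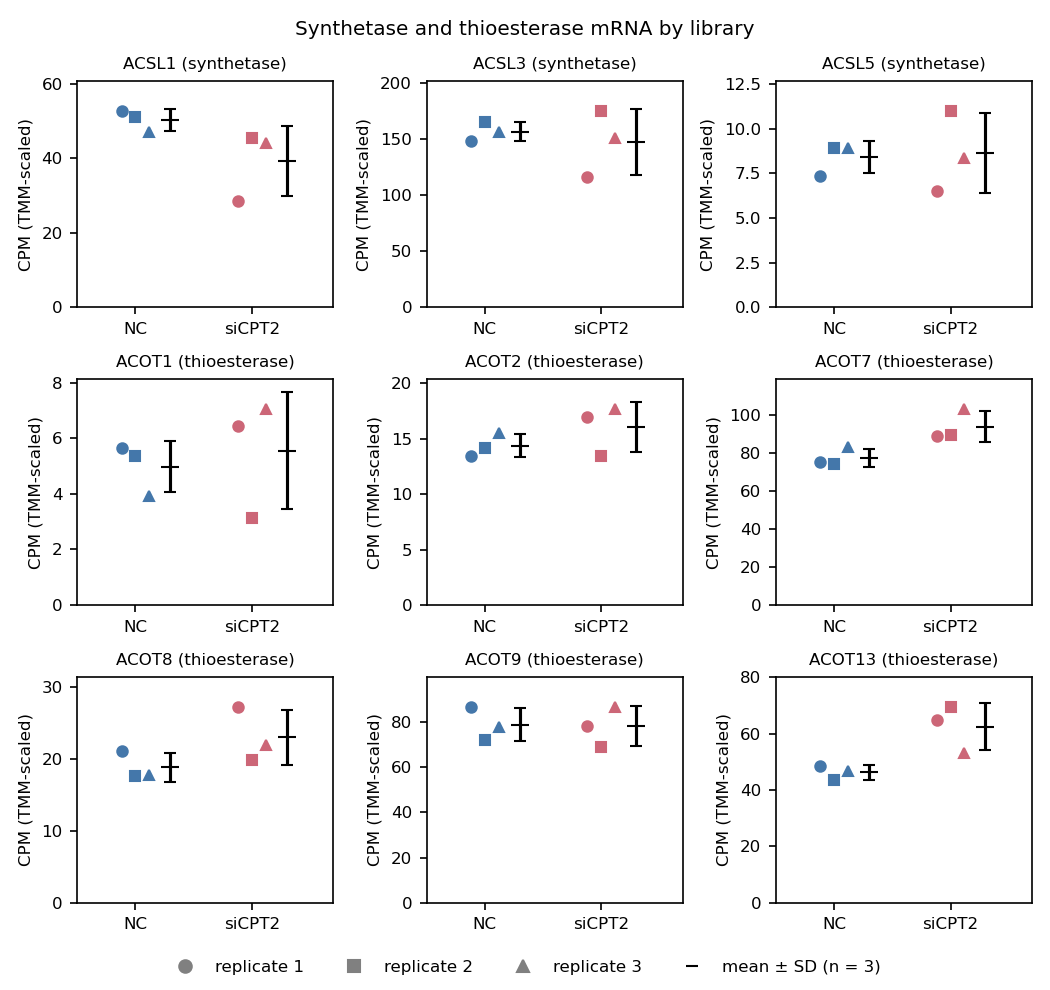
TMM-scaled CPM of the 9 tested genes in each library (axes start at 0), with circles, squares and triangles for replicates 1, 2 and 3 and bars for the mean ± SD of 3. All siCPT2 points lie above all NC points for ACOT7 and ACOT13 and below them for ACSL1, and siCPT2 replicate 1 is the low point in the 3 synthetase panels.

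ACSL1 loads long-chain fatty acids at the endoplasmic reticulum and the outer mitochondrial membrane and feeds the carnitine route. Its gene spans chr4:184755595-184826818 (GRCh38, minus strand). In NC it was at 52.7, 51.2 and 47.0 CPM and in siCPT2 at 28.5, 45.3 and 44.2 CPM in replicates 1, 2 and 3. Each siCPT2 library was below each NC library, by a wide gap in replicate 1 and a narrow one in the other 2. The log2 fold change was -0.35 ± 0.20 (SE, n = 3 per group, 95% interval -0.81 to 0.11, edgeR adjusted p = 0.367). The exact 2-sided permutation p was 0.1, the smallest that 3 against 3 can give. The 526 tested genes of like GC content and length had a median of -0.22. Without siCPT2 replicate 1 the value was -0.18, and with the GC and length offsets it was -0.14 and the groups overlapped.

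ACSL3 (chr2:222860934-222944639) was at 148.3, 165.5 and 156.3 CPM in NC and at 116.5, 175.1 and 150.6 CPM in siCPT2. The highest and the lowest of the 6 values were both siCPT2 libraries, so the groups overlapped fully. The log2 fold change was -0.09 ± 0.17 (SE, n = 3 per group, 95% interval -0.47 to 0.30, edgeR adjusted p = 0.770). With the GC and length offsets it was 0.39 (95% interval 0.11 to 0.68, edgeR adjusted p = 0.365), and after that adjustment all siCPT2 libraries were above all NC libraries. Its transcript was 38.1% GC, and the 542 tested genes of like GC content and length had a median of -0.42. The side of 0 on which ACSL3 lay therefore turned on the scaling.

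ACSL5, a mitochondrial and endoplasmic reticulum synthetase that is prominent in intestinal epithelium, lies at chr10:112374018-112428380. It was at 7.36, 8.91 and 8.93 CPM in NC and at 6.52, 10.98 and 8.33 CPM in siCPT2. The siCPT2 values spanned the NC values on both sides, and the log2 fold change was 0.04 ± 0.23 (SE, n = 3 per group, edgeR adjusted p = 0.935). Without siCPT2 replicate 2, the highest library, it was -0.18. ZDHHC6 on the opposite strand shares 144 exon bases with ACSL5 and had 947 to 1487 counts a library against 165 to 308 for ACSL5, so reads of the shared stretch are uncertain.

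ACOT1 and ACOT2 are near-identical neighbours on chromosome 14 that encode a cytosolic and a mitochondrial enzyme for long-chain acyl-CoA. ACOT1 spans chr14:73537114-73543794 and ACOT2 chr14:73567620-73575658 (GRCh38, both on the plus strand), 23825 bases apart. The coding sequences in GENCODE 29 were 1266 and 1452 bases long. The whole ACOT1 coding sequence lined up without gaps with the last part of ACOT2, with 13 differing bases and 99.0% identity. The 90-base window with the most differences is shown because it is where the aligned parts of the genes differ most, with its 4 differing bases in capitals (chr14:73537772-73537861 and chr14:73569777-73569866). Counted from the first coding base of ACOT1, with the ACOT1 base first, these were G365A, G367A, T368C and C422T.

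ACOT1: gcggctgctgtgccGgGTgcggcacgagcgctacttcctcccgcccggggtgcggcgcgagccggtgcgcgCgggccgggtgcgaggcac

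ACOT2: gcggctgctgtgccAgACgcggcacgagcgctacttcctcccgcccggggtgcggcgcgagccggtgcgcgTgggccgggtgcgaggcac

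The largest difference between the genes is the 186 coding bases that ACOT2 has before the ACOT1 start. They are shown whole, with the start codon in capitals (chr14:73569241-73569426), because they have no counterpart in the ACOT1 coding sequence. Whether they resemble genes other than ACOT1 was not examined.

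ACOT2 start: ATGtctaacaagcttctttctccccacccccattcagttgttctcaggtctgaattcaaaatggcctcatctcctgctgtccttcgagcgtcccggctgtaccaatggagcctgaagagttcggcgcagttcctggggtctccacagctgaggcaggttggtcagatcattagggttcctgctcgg

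From base 798 of ACOT1 to the stop codon, 469 bases in a row were the same in both genes. The first 90 of them are given to show a stretch where a coding read cannot name its gene (chr14:73543187-73543276 in ACOT1 and chr14:73575045-73575134 in ACOT2). Of all 100-base stretches of the ACOT1 coding sequence, 38.6% also occurred in ACOT2.

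ACOT1 and ACOT2 shared: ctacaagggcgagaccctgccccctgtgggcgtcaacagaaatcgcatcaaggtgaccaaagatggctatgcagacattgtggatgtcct

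ACOT1 was at 5.66, 5.35 and 3.92 CPM in NC and at 6.44, 3.14 and 7.06 CPM in siCPT2. The siCPT2 libraries held both the lowest and the highest values, and the log2 fold change was 0.16 ± 0.32 (SE, n = 3 per group, 95% interval -0.57 to 0.88, edgeR adjusted p = 0.785). ACOT2 was at 13.4, 14.2 and 15.5 CPM in NC and at 16.9, 13.4 and 17.7 CPM in siCPT2. Here siCPT2 replicates 1 and 3 were above all of NC and replicate 2 was within it, with a log2 fold change of 0.16 ± 0.19 (SE, n = 3 per group, edgeR adjusted p = 0.628). Over libraries left out in turn, ACOT1 ran from -0.0579 to 0.43 and ACOT2 from 0.0780 to 0.26, both highest without siCPT2 replicate 2 and lowest without siCPT2 replicate 3. The sources used here do not give how the authors' counting assigned reads of shared stretches, so the split between the genes is uncertain.

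The sum of ACOT1 and ACOT2 does not depend on that split. It was 573, 603 and 609 counts in NC and 591, 465 and 722 in siCPT2, and ACOT1 took 18.9% to 29.7% of it. The summed log2 fold change was 0.16 ± 0.20 (SE, n = 3 per group, edgeR adjusted p = 0.644). It was 0.31 without siCPT2 replicate 2, the lowest library, and -0.19 with the GC and length offsets. Both genes and their sum had the opposite sign with the offsets, at -0.25 for ACOT1 and -0.18 for ACOT2.

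ACOT7 spans chr1:6264269-6394391. It was at 75.6, 74.4 and 83.1 CPM in NC and at 89.3, 89.5 and 103.5 CPM in siCPT2. All siCPT2 libraries were above all NC libraries, and the log2 fold change was 0.28 ± 0.14 (SE, n = 3 per group, 95% interval -0.04 to 0.59, edgeR adjusted p = 0.342, exact permutation p = 0.1). Its transcript was 62.2% GC, and 354 tested genes of like GC content and length had a median of 0.42, above ACOT7 itself. With the offsets its log2 fold change was -0.10 and the groups overlapped. An antisense RNA covers 837 of the ACOT7 exon bases (20.3%) in GENCODE 29 and was not analysed here.

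ACOT8, a peroxisomal thioesterase that acts on a broad range of acyl-CoA, lies at chr20:45841721-45857406. It was at 21.1, 17.7 and 17.7 CPM in NC and at 27.3, 19.8 and 22.0 CPM in siCPT2. In siCPT2, replicates 1 and 3 were above all of NC and replicate 2 was within it, with a log2 fold change of 0.29 ± 0.19 (SE, n = 3 per group, 95% interval -0.14 to 0.72, edgeR adjusted p = 0.404). With the offsets the value was 0.25. Without siCPT2 replicate 1, the highest library, it was 0.14, and 0.10 with the offsets as well. Of the ACOT8 exon bases, 1489 (35.3%) are shared with SNX21 on the opposite strand, which had 285 to 386 counts a library against 546 to 692 for ACOT8. The genes summed gave a log2 fold change of 0.27.

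ACOT9 (chrX:23702253-23766475) was at 86.4, 72.1 and 77.8 CPM in NC and at 78.3, 69.0 and 86.8 CPM in siCPT2. The 2 groups covered nearly the same range. The log2 fold change was -0.01 ± 0.15 (SE, n = 3 per group, edgeR adjusted p = 0.965), with a 95% interval of -0.36 to 0.33 that leaves room for a difference of either sign.

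ACOT13, also known as THEM2, is a small mitochondria-associated thioesterase for long-chain acyl-CoA, and it had the largest log2 fold change of the 9 as counted. By library size alone, with limma-trend on FPKM and without siCPT2 replicate 2, ACSL1 was further from 0 (-0.48 in each) than ACOT13 (0.29, 0.28 and 0.35). So were ACSL3 with limma-trend (-0.36), and ACOT1 (0.43) and ACOT8 (0.38) without siCPT2 replicate 2. ACOT13 was at 48.5, 43.4 and 46.8 CPM in NC and at 64.7, 69.6 and 53.2 CPM in siCPT2. All siCPT2 libraries were above all NC libraries, with replicate 3 nearest to them. The log2 fold change was 0.44 ± 0.16 (SE, n = 3 per group, 95% interval 0.07 to 0.80), a mean 35.2% higher. Its unadjusted edgeR p was 0.0239 and its adjusted p 0.338, so it was not called, and the exact permutation p was 0.1. In the authors' deposited table its log2 fold change was 0.44 with a p of 0.0115 and the call "normal", the call that table gave to all 9 genes (4.15% of its genes with a p were called up or down).

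ACOT13 lay on the other side of 0 from the middle of genes with a similar transcript. Its transcript was 41.6% GC, and the 624 tested genes of like GC content and length had a median log2 fold change of -0.34. With the GC and length offsets its log2 fold change was 0.83 (95% interval 0.35 to 1.31, edgeR adjusted p = 0.365), and 0.54 with siCPT2 replicate 1 also left out. Leaving out each library in turn without the offsets gave 0.35 to 0.54.

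The neighbours of ACOT13 on either side had the opposite sign. ACOT13 starts at base 24667035 of chromosome 6 (GRCh38, plus strand) and ends at 24705065. TDP2, a DNA repair phosphodiesterase on the minus strand, begins head to head with it at 24667033 and had 1338, 1557 and 1550 counts in NC and 720, 1265 and 1378 in siCPT2. Its log2 fold change was -0.26 ± 0.21 (SE, n = 3 per group, edgeR adjusted p = 0.487). On the CPM scale, siCPT2 replicates 2 and 3 (45.1 and 47.2) were within the NC range (44.6 to 50.5). C6orf62, on the minus strand at the far end, shares 205 exon bases with ACOT13. It had 6138 to 6457 counts in NC against 3009 to 5207 in siCPT2, a log2 fold change of -0.41 ± 0.17 (SE, n = 3 per group, edgeR adjusted p = 0.338). Genes of like GC content and length had medians of -0.17 for TDP2 and -0.23 for C6orf62. With the offsets TDP2 was at -0.12 and C6orf62 at -0.17, and the groups overlapped for both. Summed with C6orf62, ACOT13 was at -0.21, a sum that C6orf62 dominates. An antisense RNA, which was not analysed here, covers 335 ACOT13 exon bases (7.62%) in GENCODE 29. Without strand in the counting, reads in these overlaps cannot be assigned. TDP2 and C6orf62 were chosen for their position, with their values seen.

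**Figure D2:**
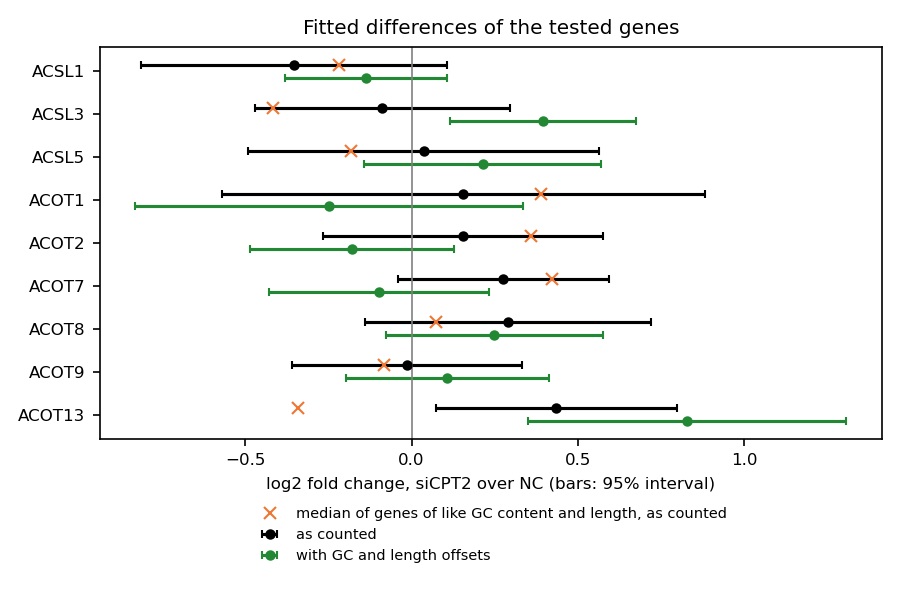
Log2 fold change of siCPT2 over NC for the 9 tested genes as counted (black) and with GC and length offsets (green), with 95% intervals, and the median of tested genes of like GC content and length (orange crosses). ACOT13 is at 0.44 as counted with its cross at -0.34, and ACOT7 is at 0.28 with its cross at 0.42.

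Transcript GC content moved with the fold change across the 13207 tested genes that had an annotated transcript, and the members have to be read beside that. The median log2 fold change ran from -0.41 in the tenth of genes with the lowest GC content to 0.48 in the tenth with the highest. In siCPT2 replicate 1 alone, the corresponding medians relative to the NC mean were -1.02 and 0.81. They were -0.04 and 0.09 in siCPT2 replicate 2 and -0.29 and 0.44 in siCPT2 replicate 3. NC replicate 2 ran the other way, at 0.18 and -0.17. The trend was thus not limited to siCPT2 replicate 1. Of the 9 members, 5 were above the median of genes of like GC content and length. ACSL3, ACSL5, ACOT8, ACOT9 and ACOT13 were those above, and ACSL1, ACOT1, ACOT2 and ACOT7 those below. These placements and the offsets rest on the longest annotated transcript. For ACOT7 and ACOT8 it had 2429 and 3059 bases, where the implied lengths were 1.59 to 1.66 kb and 1.11 to 1.21 kb. The placement and offset values of ACOT7 and ACOT8 are therefore uncertain. The 3 tested synthetases had transcripts of 38.1% to 45.1% GC and the thioesterases of 41.6% to 62.2% GC. The part of GC content in any of these differences was not tested.

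**Figure D3:**
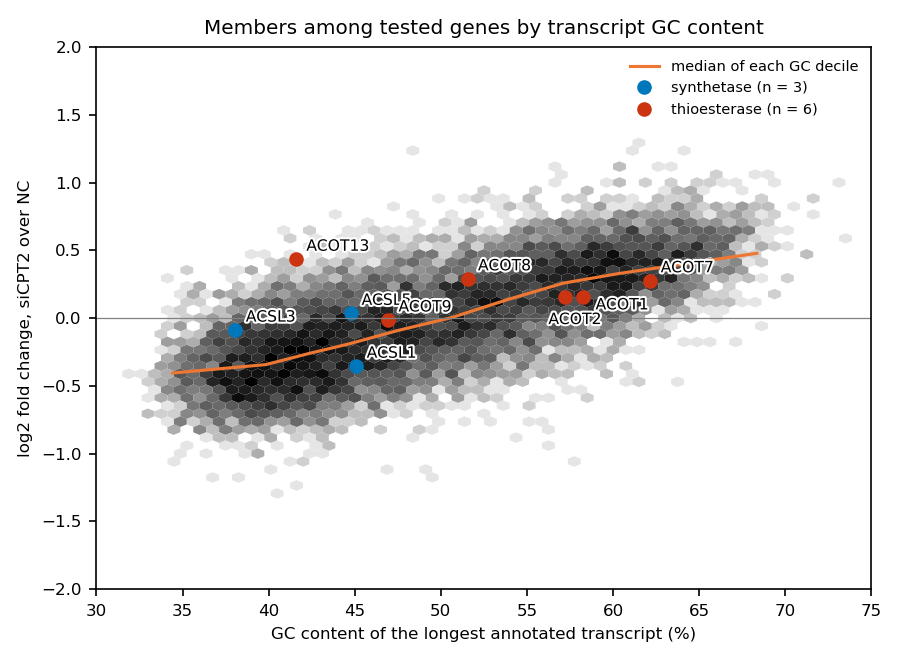
Log2 fold change of siCPT2 over NC against the GC content of the longest annotated transcript, with tested genes that have an annotated transcript as grey hexagons (darker where more genes fall, log scale), the median of each GC decile as the orange line and the members as dots. ACOT13 lies furthest above the line at 41.6% GC, and ACOT7, ACOT1 and ACOT2 lie below it on its rising part.

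The other genes of both enzyme classes that were listed for this report were also without a call. Of 18 other acyl-CoA synthetases, 14 were tested, and 11 were higher and 3 lower in siCPT2, with a median log2 fold change of 0.29 beside 0.01 for all tested genes. The smallest p-values were those of SLC27A3, SLC27A1 and ACSS2. SLC27A3 and SLC27A1, fatty acid transport proteins with synthetase activity, were at 0.49 ± 0.23 and 0.55 ± 0.27 (SE, n = 3 per group, edgeR adjusted p = 0.338 for both). ACSS2 makes acetyl-CoA from acetate outside mitochondria and was at 0.27 ± 0.17. With the offsets, SLC27A3, SLC27A1 and ACSS2 were at 0.25, 0.31 and 0.14, and without siCPT2 replicate 1 (no offsets) at 0.25, 0.24 and 0.20. ACSS2 stood at 51.3, 40.6 and 39.3 CPM in NC and 57.6, 47.9 and 53.0 CPM in siCPT2, where its mitochondrial counterpart ACSS1 was near 0. ACSL4, the synthetase of arachidonic acid, named here with its values seen to complete the family, was at -0.47 ± 0.30 (SE, n = 3 per group, edgeR adjusted p = 0.392), at -0.06 with the offsets, and at -0.19 without siCPT2 replicate 1. Its siCPT2 replicate 1 was at 26.2 CPM and its other 5 libraries at 49.6 to 74.9 CPM.

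Of 14 other acyl-CoA and acyl-protein thioesterases, 11 were tested, and 8 were higher and 3 lower, with a median of 0.24. ABHD17A, LYPLA2 and THEM6 had an unadjusted p under 0.05, all in the higher direction, where 9.18% of all tested genes did. ABHD17A and LYPLA2, which remove palmitate from proteins, were at 0.66 ± 0.22 and 0.56 ± 0.22 (SE, n = 3 per group, edgeR adjusted p = 0.338 for both). THEM6 was at 0.50 ± 0.21. Their transcripts were 61.9% to 65.4% GC, and with the offsets the values were 0.28, 0.08 and 0.05. Without siCPT2 replicate 1 (no offsets) they were 0.42, 0.33 and 0.29. ACOT4, the peroxisomal succinyl-CoA thioesterase beside ACOT1 and ACOT2, was at 0.22 ± 0.29, and it too was named with its values seen.

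Of 11 genes of acyl-CoA and fatty acid binding and uptake, 8 were tested, with 5 higher and 3 lower and a median of 0.12. DBI, the acyl-CoA binding protein that carries the product of the synthetases, was at 132.0, 93.5 and 118.6 CPM in NC and 211.8, 143.3 and 161.2 CPM in siCPT2. All siCPT2 libraries were above all NC libraries, with a log2 fold change of 0.59 ± 0.19 (SE, n = 3 per group, edgeR adjusted p = 0.338) and 0.55 with the offsets. It was 0.40 without siCPT2 replicate 1, and 0.29 with the offsets as well. Its transcript was 38.5% GC, and the only 12 tested genes of like GC content and length had a median of 0.20, on the same side of 0. FABP3, a fatty acid binding protein of heart and muscle, was at 0.55 ± 0.20 and at 0.26 with the offsets. ACBD4, a peroxisomal acyl-CoA binding protein, was at 0.47 ± 0.21 and at 0.03 with the offsets. FABP3 and ACBD4 were at 0.34 and 0.23 without siCPT2 replicate 1 (no offsets). DBI and ACOT13 thus shared low GC content and a positive value with and without the offsets. Both had all siCPT2 libraries above all NC libraries, as did 12.2% of tested genes. Genes of like GC content and length had a positive median for DBI but a negative one for ACOT13. Neither gene was called.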

How the data were processed

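Poly(A) RNA-seq libraries of HCT116 cells were grouped by the labels into NC (n = 3) and siCPT2 (n = 3), both at 48 h. The authors deposited one table with whole-number raw counts for each gene in each library, beside values that the file headers name FPKM, and the p-value, log2 fold change and call of their own comparison per the file headers. The submitters' processing notes name the build GRCh38 and, as tools, StringTie, HISAT2, Bowtie2, TopHat2, edgeR and DESeq2. The sources used here do not give their roles, versions, strand setting or gene models. In the table, 17 lines without a gene ID were left out.

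The test on counts was that of edgeR 4.0.16 in R 4.3.3 (filterByExpr, TMM, robust quasi-likelihood F-test, Benjamini-Hochberg over all 15302 tested genes, threshold 0.05). CPM used TMM-scaled library sizes, but the implied lengths used total counts without TMM factors. Exact 2-sided permutation tests used log2 CPM with a prior count of 2. Alternatives were DESeq2 1.42.0, RLE factors, library size alone, no filter, 1 CPM in 3 libraries, a replicate block, each library left out in turn, limma-trend 3.58.1 on log2(FPKM + 1), loess offsets (span 0.3) for transcript GC content and log2 length, those offsets with the block or without siCPT2 replicate 1, and summed paralogs or overlapping genes. Genes of like GC content and length were those within 1.5 percentage points and 0.4 of log2 length. The longest transcript in GENCODE 29 (GRCh38) stood for each gene, and the sequences were read from its transcripts. The scripts were tested on simulated data with 200 changed genes. The members, the gene lists and the rule for named genes (all members, CPT2, every called list gene and the 3 smallest p-values of each list) were chosen with earlier results of these data known, and 1 gene that the rule names is not reported here. Counting error alone is covered by the limit for a count of 0.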

Additional observations from a re-analysis of the deposited data

How the results depend on the processing

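The call of no member ended on a setting, since none was called, but directions did depend on processing. The count of called genes (2) was 13 with DESeq2, 0 with limma-trend on log2(FPKM + 1), which had 2055 genes at an unadjusted p under 0.05, 4 with the offsets without siCPT2 replicate 1, and 1 to 5 with a library left out (1 without NC replicate 1 or 3, 5 without siCPT2 replicate 2). The edgeR genes at an unadjusted p under 0.05 (2215) were 503 without NC replicate 2 and 5615 without siCPT2 replicate 2. Of the 2215, 1405 were higher and 810 lower, against 582 and 1439 with library size alone. With the replicate block, 633 genes were called (4.14%), and 590 (4.47%) with the block and the offsets. Same-numbered libraries had correlations of 0.25, 0.36 and 0.00651, and not every library correlated best with its own number, so the numbers were not taken to pair the samples.

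The log2 fold changes that changed sign were as follows. With the offsets they were 0.39 (ACSL3), -0.25 (ACOT1), -0.18 (ACOT2), -0.10 (ACOT7), 0.11 (ACOT9) and 0.044 (CPT2). With the offsets and the replicate block they were 0.39 (ACSL3), -0.26 (ACOT1), -0.18 (ACOT2), -0.12 (ACOT7), 0.10 (ACOT9) and 0.00438 (CPT2). With the offsets without siCPT2 replicate 1 they were 0.25 (ACSL3), -0.27 (ACOT1), -0.13 (ACOT2), 0.0022 (ACOT9), -0.029 (ACBD4), -0.0022 (ACADVL) and 0.0104 (ACSL4). With limma-trend they were -0.078 (ACSL5), -0.021 (ACOT1) and 0.0103 (ACOT9), and ACSL5 was at -0.092 with library size alone. Summed with overlapping genes, ACSL5 (with ZDHHC6) and ACOT13 (with C6orf62) were both at -0.21. ZDHHC6 and C6orf62 dominate these sums and were at -0.26 and -0.41 by themselves. Leaving out each library gave -0.24 to 0.0463 (ACSL3), -0.18 to 0.19 (ACSL5), -0.0579 to 0.43 (ACOT1), -0.0961 to 0.0628 (ACOT9) and -0.0781 to 0.40 (ACOT4). With the offsets and the replicate block, ACOT13 passed the test at 0.79 (edgeR adjusted p = 0.0214, range over its alternatives 0.0214 to 0.772), as did ACSL3 at 0.39 with the sign reversed (0.0417, range 0.0417 to 0.943). No other member passed under any alternative. DBI passed in 2 alternatives, and FABP3 and ACLY in 1 each, all of them fits with the replicate block.

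The members' median log2 fold change was 0.0122 with library size alone, 0.0103 with limma-trend, 0.0574 with the offsets without siCPT2 replicate 1, and 0.0598 to 0.26 with a library left out. The synthetase median ran from -0.24 to 0.0463 with a library left out and the thioesterase median from 0.12 to 0.33. The synthetase median was 0.21 with the offsets, 0.21 with the block added and 0.25 without siCPT2 replicate 1, and the thioesterase median 0.00438, -0.0091 and 0.0298. Per kilobase of the longest transcript, NC levels were 12.3 (ACSL1), 27.6 (ACSL3), 32.0 (ACOT7), 6.16 (ACOT8) and 10.5 CPM (ACOT13). The cause of these changes was not tested. ACSS1 was too shallow for a test.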

Other observations

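Genes that supply coenzyme A and acetyl-CoA were measured beside the enzymes that use them. Of 12 genes, all tested and none called by edgeR, 7 were higher and 5 lower in siCPT2, with a median log2 fold change of 0.15. ACLY, which makes cytosolic acetyl-CoA from citrate, was at 235.5, 279.1 and 243.6 CPM in NC and at 143.2, 229.5 and 202.5 CPM in siCPT2. All siCPT2 libraries were below all NC libraries, with a log2 fold change of -0.40 ± 0.19 (SE, n = 3 per group, edgeR adjusted p = 0.338) and -0.39 with the GC and length offsets. Without siCPT2 replicate 1, the lowest library, it was -0.24, and -0.22 with the offsets as well. PPCDC, an enzyme of coenzyme A synthesis, was at 0.48 ± 0.22, and PANK3, a kinase of its first step, at -0.52 ± 0.25. With the offsets those values were 0.26 and -0.01, and without siCPT2 replicate 1 (no offsets) 0.31 and -0.29.

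Of 10 target genes of PPAR alpha, the nuclear receptor that responds to fatty acids, 7 were tested, with 3 higher and 4 lower, a median of -0.13 and no call. CPT1A, which makes the acylcarnitine that CPT2 uses, was at -0.28 ± 0.14 (SE, n = 3 per group, edgeR adjusted p = 0.340). All its siCPT2 libraries were below all NC libraries, as for 12.2% of tested genes. ACADVL, the very-long-chain acyl-CoA dehydrogenase, was at 0.44 ± 0.20. With the offsets the values were -0.19 for CPT1A and 0.10 for ACADVL, which was at 0.20 without siCPT2 replicate 1 (no offsets).

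The length implied by the ratio of CPM to deposited FPKM was not constant for 2 members. For ACSL3 it ran from 4.27 to 5.96 kb across the 6 libraries, 1.40 times, and for ACOT9 from 2.45 to 3.15 kb, 1.29 times, where the median over 15087 tested genes was 1.06 times. The other tested members varied by at most 1.09 times.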
